A study of Mus musculus with 6 samples.

Results

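Interleukins are secreted proteins through which cells of the immune system and its surroundings signal to each other, and the genes described here are the mouse interleukins together with the chains of their receptors. Members were taken by name: every protein-coding row of the gene table whose symbol begins with Il followed by a digit, which gave 83 of the 21848 protein-coding genes in a table of 57010 genes. Of these 83, 37 had at least 10 counts in 3 or more libraries and are described one by one, while 46 did not reach that level, 15 of them with no count in any library. By role, the 37 were 13 ligands that activate a receptor, 20 signalling receptor chains, 1 receptor antagonist and 3 decoys that bind a ligand without signalling.

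The cells were primary neonatal mouse cardiomyocytes (NMCMs), isolated from newborn C57BL/6 hearts and parted from cardiac fibroblasts by their weaker adhesion to plastic. All 6 libraries came from cells kept under hypoxia (HO), and no normoxic library was analysed here. In 3 libraries the cells had received vehicle (HO + Vehicle, libraries 1 to 3) and in 3 they had received β-sitosterol, a plant sterol (HO + β-SITO, libraries 4 to 6). The dose and the length of treatment for these libraries are not given in the sources used here. Nothing in the labels says that the libraries of a group came from separate cultures, so the p-values below measure the spread between these libraries, which may be technical. The library names of the HO + β-SITO group carry a suffix that those of the HO + Vehicle group lack, so that any separate handling of these libraries cannot be told apart from β-SITO.

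Interleukins of the IL-1 family are made by stressed, dying or activated cells and bind receptors that signal through MyD88 to NF-κB. Most other interleukins bind paired receptor chains that signal through JAK kinases and STAT factors, and chains such as gp130 and the common gamma chain are shared by several ligands. In the injured heart, IL-1β and IL-6 are known as early inflammatory mediators, and antagonists and decoy receptors limit how strongly they act.

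Each library held between 16694734 and 18460522 counts. A gene was called when edgeR's quasi-likelihood test gave a Benjamini-Hochberg adjusted p under 0.05 over all 14799 genes tested and the change exceeded 2-fold, and log2 fold changes are HO + β-SITO over HO + Vehicle with their standard error (SE). Levels are CPM, counts scaled by TMM to a library of fixed size,, as mean ± SD with n = 3 per group. The 14 cardiomyocyte markers listed, among them Tnnt2 and Actn2, were all detected, and their summed level was 6452 to 7479 CPM with vehicle and 5898 to 10039 CPM with β-SITO, library 4 being the lowest and the other two at or above 9895 CPM. Of the 14, 4 were called higher (Myl7, Myl4, Myh7 and Nppa, at log2 fold changes of 2.39, 1.86, 1.61 and 1.497) and none lower. A further 2, Tnnt2 (-0.47) and Pln (-0.42), were lower at an adjusted p under 0.05 with a change under 2-fold. By the same measure 2, Myh6 (0.53) and Ttn (0.80), were higher. Cells other than cardiomyocytes were also represented, and in every library the 9 fibroblast markers summed to more than the 14 cardiomyocyte markers. The fibroblast sums lay between 29934.5 and 31206 CPM with vehicle and between 44584 and 45674 CPM with β-SITO. Most of these sums came from Col1a1, Col1a2 and Col3a1, at 9100, 6800 and 10421.5 CPM with vehicle and 12197, 10215 and 18850 CPM with β-SITO. The sums of the marker lists are not scaled for gene length. None of the 9 was called, while 6 were higher and 2, Dcn and Postn, lower at an adjusted p under 0.05 with a change under 2-fold. The 13 macrophage markers summed to between 1376 and 1504 CPM with vehicle and to between 2865 and 3519 CPM with β-SITO, with 9 called higher and 2, Cd14 and Fcgr1, called lower. All 8 endothelial markers were called higher, their summed level going from between 204 and 234 CPM to between 837 and 867 CPM. In these bulk libraries, fewer cells of a type and less RNA per cell cannot be told apart, and the part of these cell types in the results below was not tested.

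Among the 37 members, 22 were called lower and 3 higher with β-SITO, where 10.1% of all tested genes were called lower and 12.8% higher. The ligands gave 10 lower and 2 higher of 13, and the antagonist and the decoys were lower in 4 of 4. Receptor chains were fewer in number among the calls, with 8 lower and 1 higher of 20. The median log2 fold change was -1.30 over the 37 members, -1.70 over the ligands and -0.58 over the receptor chains, beside -0.01 over all tested genes. In 34 of the 37 every library of one group lay above every library of the other, as was the case for 70.5% of the genes tested. Counts of this kind lean towards differing genes, because 7 members (Il12b, Il1a, Il1b, Il27, Il13ra2, Il1r2 and Il12rb1) reached 10 counts in the vehicle libraries only and so could pass no other way than by being higher there. With the 28 members that had 10 counts in all 6 libraries, the calls were 14 lower and 2 higher, and the median was -1.0. The members closest above the entry level were at 13, 19 and 16 counts with vehicle and 7, 5 and 6 with β-SITO (Il1r2), and those with 10 counts in 2 libraries, just below it, were Il10rb (14, 11 and 9, then 3, 8 and 9), Il12a (9, 13 and 11, then 0, 2 and 2), Il1rl1 (1, 5 and 2, then 10, 8 and 13) and Il23r (17, 5 and 14, then 1, 0 and 0). Of these 4, Il1rl1 had its higher counts with β-SITO.

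**Figure D1:**
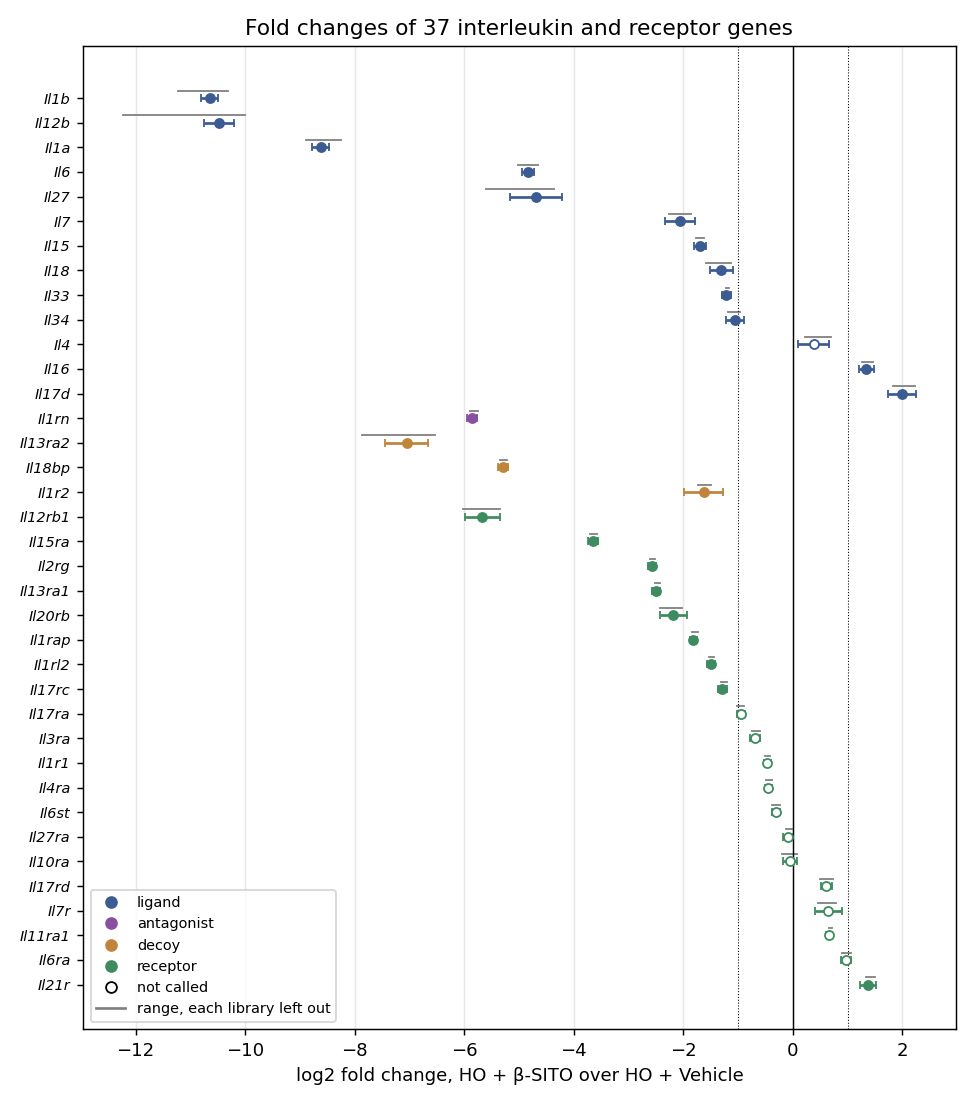
Log2 fold change of each of the 37 members, HO + β-SITO over HO + Vehicle, by role. Points are fitted values, coloured bars their SE, grey lines the range when each of the 6 libraries is left out, open points members not called, and dotted lines 2-fold. The ligands spread from -10.65 (Il1b) to 1.99 (Il17d), whereas 11 of 20 receptor chains lie between the dotted lines.

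The ligands with the lowest levels after β-SITO relative to vehicle were Il1b, Il12b, Il1a, Il6 and Il27. The sequence upstream of the start site is shown for those of them that fell by over 16-fold and have an entry in RefSeq (Il27 has none in the table used), because these ligand transcripts differed most among the ligands and because the genes are known targets of inflammatory transcription factors. Each run is the 250 bases before the annotated start, 5′ to 3′ on the strand of the gene, in build GRCm38.p6. Il1b lies on the minus strand at chr2:129371140-129371389, Il1a on the minus strand at chr2:129309973-129310222, Il6 on the plus strand at chr5:30012864-30013113 and Il12b on the plus strand at chr11:44399813-44400062. Capitals mark matches, on either strand, to 5 motifs searched: the NF-κB consensus, AP-1 (TGANTCA), C/EBP (TTGCNNAA), IRF (GAAANNGAA) and the ETS core bound by PU.1 (GAGGAA).
Il1b: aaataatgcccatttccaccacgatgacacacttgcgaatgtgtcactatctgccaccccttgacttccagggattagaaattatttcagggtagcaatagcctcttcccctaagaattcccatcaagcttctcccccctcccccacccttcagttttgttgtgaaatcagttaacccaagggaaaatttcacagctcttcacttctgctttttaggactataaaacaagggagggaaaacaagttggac
Il1a: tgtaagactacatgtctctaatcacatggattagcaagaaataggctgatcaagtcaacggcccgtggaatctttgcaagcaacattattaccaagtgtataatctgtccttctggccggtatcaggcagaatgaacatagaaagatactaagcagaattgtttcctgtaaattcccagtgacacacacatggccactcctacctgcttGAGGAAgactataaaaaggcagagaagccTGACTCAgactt
Il6: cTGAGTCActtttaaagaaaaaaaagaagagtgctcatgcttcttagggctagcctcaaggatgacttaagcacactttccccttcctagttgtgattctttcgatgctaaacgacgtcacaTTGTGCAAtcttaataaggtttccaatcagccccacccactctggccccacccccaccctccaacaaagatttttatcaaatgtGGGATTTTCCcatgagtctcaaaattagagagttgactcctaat
Il12b: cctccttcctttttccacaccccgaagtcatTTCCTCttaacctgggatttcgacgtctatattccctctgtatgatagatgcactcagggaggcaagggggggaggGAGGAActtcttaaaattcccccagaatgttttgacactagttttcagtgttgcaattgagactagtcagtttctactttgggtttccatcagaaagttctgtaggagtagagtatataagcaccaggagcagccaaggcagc
The Il6 promoter held an NF-κB match from 44 to 35 bases before the start, a C/EBP match from 128 to 121 bases before it and an AP-1 match from 249 to 243 bases before it. In Il1a an AP-1 match lay from 12 to 6 bases before the start and a PU.1 core from 41 to 36 bases before it. Il12b held 2 PU.1 cores, from 219 to 214 and from 143 to 138 bases before the start, and Il1b held none of the letters searched in this window. The AP-1 matches in Il6 and Il1a were found at the same bases on both strands. Apart from that, no match overlapped another. Of 32851 mouse promoters of the same length, 7.25% held the NF-κB consensus, 6.75% AP-1, 9.56% C/EBP, 7.13% IRF and 23.3% the PU.1 core, and the matches are a description of the sequence only.

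IL-1 ligands fell furthest together with IL-12 subunit p40. Il1b, which encodes IL-1β and lies at chr2:129206490-129213059 (GRCm39) on the minus strand, had 3124, 3522 and 3447 counts with vehicle and 4, 1 and 2 with β-SITO. The vehicle libraries were thus all high, and no β-SITO library held more than 4 reads. Its level was 211 ± 12.0 CPM against 0.122 ± 0.08 CPM, a pooled ratio of 1699 (95% counting interval 824 to 4227, counting error only), and the fitted log2 fold change was -10.65 (SE 0.15, edgeR adjusted p = 5.32e-17). Il1a, the gene of IL-1α at chr2:129141530-129151892, had 1377, 1501 and 1592 counts with vehicle and 2, 5 and 6 with β-SITO. Again the groups were far apart, at 93.2 ± 5.89 CPM and 0.232 ± 0.113 CPM, with a pooled ratio of 405 (237 to 762) and a fitted log2 fold change of -8.62 (SE 0.15, edgeR adjusted p = 4.33e-16). Where a group holds only a few reads, as for both of these genes with β-SITO, the fitted value also depends on the prior count of the model. A lncRNA antisense to Il1b, Il1bos, had at most 2 counts in any library.

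The other IL-1 family ligands past the entry level, Il33 and Il18, fell as well, with smaller fold changes. Il33, an alarmin stored in the nucleus and released from damaged cells, had 418, 450 and 455 counts with vehicle and 236, 206 and 231 with β-SITO. Vehicle libraries all lay above β-SITO libraries, at 27.6 ± 1.04 CPM against 11.9 ± 0.292 CPM, and the log2 fold change was -1.21 (SE 0.08, edgeR adjusted p = 3.22e-09). Il18, an inducer of interferon-γ that is processed by caspase-1 as IL-1β is, had 73, 71 and 76 counts with vehicle and 49, 29 and 27 with β-SITO. The β-SITO libraries were all lower, library 4 less so than the other two, and the log2 fold change was -1.30 (SE 0.21, edgeR adjusted p = 6.67e-05). A test against a 2-fold change in place of no change left Il18 at an adjusted p of 0.152. Reads of Il18 may include some from Bco2 and Tex12, which overlap it on the opposite strand, as the strand setting of the counting is not given in the sources used here.

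Among ligands that act through gp130 or the IL-12 receptors, Il6, Il12b and Il27 were all called lower. Il6, which encodes an acute-phase cytokine and lies at chr5:30218112-30224979 on the plus strand, had 1545, 1602 and 1688 counts with vehicle and 85, 48 and 67 with β-SITO. Unlike the IL-1 ligands, it remained well above the floor of detection in every β-SITO library. Its level fell from 101 ± 3.54 CPM to 3.52 ± 0.835 CPM, a log2 fold change of -4.83 (SE 0.11, edgeR adjusted p = 4.76e-15). Il12b, at chr11:44290890-44304860 on the plus strand, encodes p40, the chain shared by IL-12 and IL-23. It had 575, 493 and 626 counts with vehicle and 0, 0 and 1 with β-SITO. A single read was thus all that the 3 β-SITO libraries held, and the pooled ratio of 1996 has a counting interval from 358 to 78885. The fitted log2 fold change was -10.47 (SE 0.28, edgeR adjusted p = 3.47e-14). Il27, which encodes the p28 chain of IL-27, had 56, 54 and 30 counts with vehicle and 1, 4 and 1 with β-SITO. The vehicle libraries varied among themselves but stayed above all β-SITO libraries, with a pooled ratio of 27.5 (12.3 to 76.2) and a fitted log2 fold change of -4.69 (SE 0.47, edgeR adjusted p = 3.26e-07). Apobr overlaps Il27 on the opposite strand.

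Partner subunits of these ligands were measured as well. Ebi3, the second chain of IL-27, fell from 14.8 to 3.43 CPM (log2 fold change -2.10, edgeR adjusted p = 2.7e-09), a gene that is not named as an interleukin and therefore no member. Il12a, the p35 chain that p40 pairs with in IL-12, did not reach the entry level, and Il23a, the p19 chain of IL-23, had at most 8 counts.

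Ligands of the common gamma chain receptors moved by different amounts. Il15, a survival factor for NK cells and memory T cells, had 304, 368 and 327 counts with vehicle and 136, 104 and 122 with β-SITO. No β-SITO library reached the lowest vehicle library, and the level fell from 20.8 ± 2.0 CPM to 6.40 ± 0.573 CPM (log2 fold change -1.70, SE 0.11, edgeR adjusted p = 1.82e-09). Il7, a growth factor for lymphocytes, had 41, 47 and 37 counts with vehicle and 15, 8 and 12 with β-SITO. It fell by 2.06 on the log2 scale (SE 0.27, edgeR adjusted p = 7.49e-06), from a level that was already low. Il4, the type 2 cytokine, had 15, 29 and 18 counts with vehicle and 32, 33 and 30 with β-SITO. Its groups overlapped once scaled, at 1.29 ± 0.462 CPM against 1.69 ± 0.151 CPM, and the log2 fold change of 0.38 (SE 0.28) did not pass the test (edgeR adjusted p = 0.242).

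Il16 and Il17d were the ligands that rose. Il16, a chemoattractant for CD4-bearing cells, had 72, 63 and 56 counts with vehicle and 204, 165 and 201 with β-SITO. Every β-SITO library was above every vehicle library, at 10.1 ± 0.692 CPM against 3.99 ± 0.540 CPM, and the log2 fold change was 1.34 (SE 0.14, edgeR adjusted p = 4.65e-07). Stard5 overlaps Il16 on the opposite strand. Il17d, a divergent member of the IL-17 family, had 9, 16 and 12 counts with vehicle and 52, 58 and 64 with β-SITO. It rose from 0.772 ± 0.219 CPM to 3.09 ± 0.362 CPM (log2 fold change 1.99, SE 0.26, edgeR adjusted p = 5.95e-06), with no overlap between the groups.

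Il34, a ligand of the macrophage receptor CSF1R, was the call nearest to the 2-fold limit. It had 109, 115 and 82 counts with vehicle and 62, 51 and 60 with β-SITO. The 2 groups did not overlap, at 6.39 ± 1.15 CPM and 3.06 ± 0.169 CPM, and the log2 fold change was -1.06 (SE 0.17, edgeR adjusted p = 5.31e-05). It missed the 2-fold limit, in the same direction, with scaling by library size alone (-0.91) and without vehicle library 1 (-0.98), vehicle library 2 (-0.96) or β-SITO library 5 (-0.99).

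**Figure D2:**
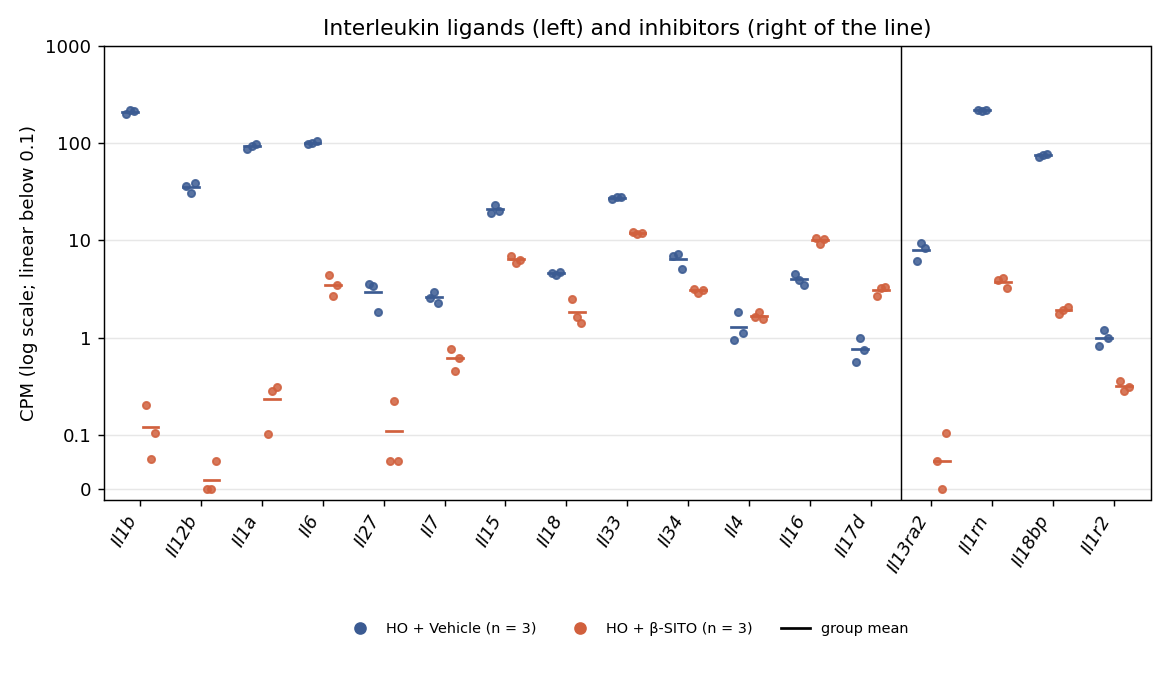
CPM of the 13 ligands and, right of the vertical line, the 4 inhibitors in each library, on an axis that is logarithmic above 0.1 CPM and linear below it. Points are libraries (3 per group) and short lines group means. The means of Il1b, Il1a and Il12b go from 211, 93.2 and 35.3 CPM to 0.122, 0.232 and 0.0174 CPM with β-SITO, and that of the antagonist Il1rn from 218 to 3.76 CPM.

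All 4 inhibitors past the entry level were called lower with β-SITO, as were 10.1% of all tested genes. Il13ra2 and Il1r2 reached 10 counts in the vehicle libraries only and so could pass no other way than by being higher there. Il1rn encodes the IL-1 receptor antagonist, which occupies the IL-1 receptor without starting a signal, and lies at chr2:24226865-24241506 on the plus strand. It had 3509, 3425 and 3533 counts with vehicle and 77, 73 and 62 with β-SITO. The libraries of a group lay close together, at 218 ± 3.50 CPM and 3.76 ± 0.469 CPM, and the log2 fold change was -5.86 (SE 0.09, edgeR adjusted p = 6.39e-17). Il18bp, the binding protein that captures IL-18, had 1140, 1213 and 1248 counts with vehicle and 34, 34 and 40 with β-SITO. Here too the groups were tight and far apart, at 75.1 ± 2.79 CPM and 1.91 ± 0.167 CPM (log2 fold change -5.29, SE 0.10, edgeR adjusted p = 6.42e-16). Numa1 overlaps Il18bp on the opposite strand.

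Both of the other decoys had few reads with β-SITO. Il13ra2, the IL-13 receptor chain that binds its ligand without the usual signal, had 97, 150 and 135 counts with vehicle and 1, 0 and 2 with β-SITO. The pooled ratio was 150.04 (51.0 to 731), with a fitted log2 fold change of -7.05 (SE 0.39, edgeR adjusted p = 3.18e-10). Il1r2, the decoy receptor for IL-1, was lower at the counts given above, with 1.0 ± 0.185 CPM against 0.318 ± 0.04 CPM (log2 fold change -1.63, SE 0.36, edgeR adjusted p = 0.00101). When tested against a 2-fold change it had an adjusted p of 0.0871.

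Ratios of an inhibitor to its target within a library, which do not depend on library size, moved in different directions. The ratio of Il1rn to Il1b reads was 1.12, 0.972 and 1.02 with vehicle and 17.2, 49.0 and 25.0 with β-SITO. Reads of antagonist and agonist were thus about equal in the vehicle libraries, while those of the antagonist were in excess in all β-SITO libraries, although both genes had fallen. For Il18bp to Il18 the ratio was 15.5, 16.97 and 16.3 with vehicle and 0.697, 1.17 and 1.47 with β-SITO. Reads of the binding protein exceeded those of its ligand in every vehicle library and were near parity with β-SITO. Il1r2 to Il1r1, the decoy to the signalling IL-1 receptor, had ratios of 0.00541, 0.00866 and 0.00659 with vehicle and 0.00346, 0.00295 and 0.00303 with β-SITO. The log2 differences were 4.73, -3.94 and -1.11 in that order. None of the 3 ratios overlapped between groups, and neither did 70.5% of all single genes tested. Each gave p = 0.1 in a two-sided exact permutation test, the smallest value 3 libraries against 3 allow, so it cannot decide. Il1b and Il1r2 reached 10 counts in the vehicle libraries only, so their ratios depend on the entry rule. Il1b had only 4, 1 and 2 counts with β-SITO. The ratios are of reads with 0.5 added to each count, not of transcript or protein amounts.

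**Figure D3:**
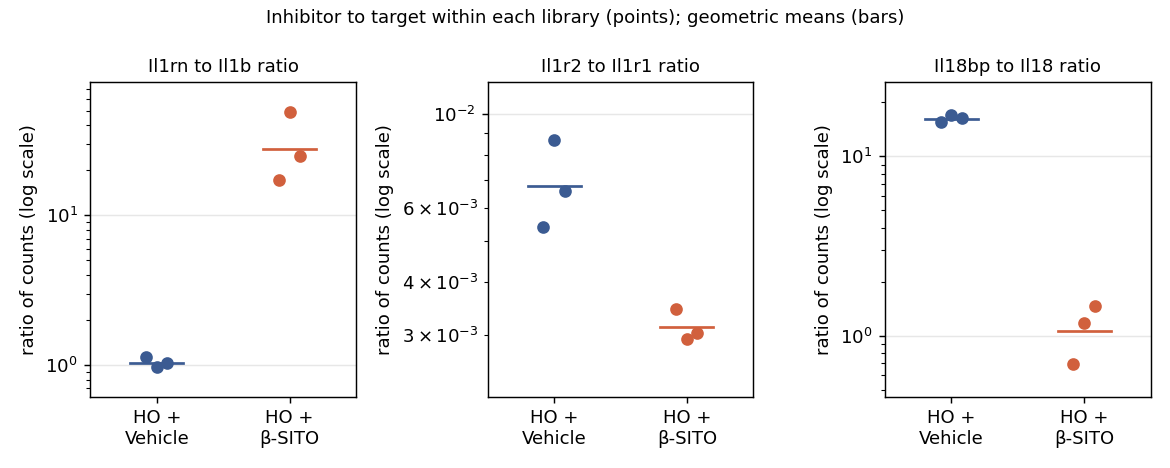
Ratio of reads of an inhibitor to reads of its target in each library, on log axes whose range differs between panels. Points are libraries (3 per group) and bars geometric means. Il1rn to Il1b is near 1 with vehicle and 17.2 to 49.0 with β-SITO, whereas Il18bp to Il18 goes from between 15.5 and 16.97 to between 0.697 and 1.47.

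Among receptors of the IL-1 family, Il1rap and Il1rl2 were called lower with β-SITO and Il1r1 was not called. Il1rap, the accessory protein used by the receptors for IL-1, IL-33 and IL-36, had 1680, 1757 and 1947 counts with vehicle and 643, 560 and 600 with β-SITO, a log2 fold change of -1.81 (SE 0.07, edgeR adjusted p = 2.22e-12). Il1rl2, the IL-36 receptor, had 1133, 1083 and 1224 counts with vehicle and 517, 446 and 474 with β-SITO (log2 fold change -1.50, SE 0.07, edgeR adjusted p = 3.44e-11). Both therefore lay lower in every β-SITO library. Il1r1, the signalling IL-1 receptor, had 2493, 2250 and 2505 counts with vehicle and 2165, 1867 and 2144 with β-SITO. Its change passed the test on the adjusted p but was smaller than 2-fold, at -0.47 (SE 0.06, edgeR adjusted p = 6.55e-06). Of the ligands and chains that go with them, no Il36 gene had more than 1 count, and Il1rl1, the IL-33 receptor, had at most 13.

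Of the gp130 and IL-12 receptor chains, only Il12rb1 was called. Il12rb1, which pairs to form the receptors for IL-12 and IL-23, had 79, 93 and 104 counts with vehicle and 1, 2 and 3 with β-SITO. All β-SITO libraries were near 0 and the pooled ratio was 54.2 (24.6 to 149), with a fitted log2 fold change of -5.67 (SE 0.32, edgeR adjusted p = 4.17e-10). Il6ra, the IL-6 receptor, had 282, 275 and 299 counts with vehicle and 748, 557 and 670 with β-SITO. It was higher in every β-SITO library, at 34.9 ± 3.57 CPM against 17.9 ± 0.648 CPM, and its log2 fold change of 0.97 (SE 0.09, edgeR adjusted p = 1.17e-07) passed the test but stopped short of the 2-fold limit. The same gene passed that limit with scaling by library size alone (1.11) and without vehicle library 3 (1.02) or β-SITO library 5 (1.07). Il6st, which encodes gp130 itself, had 24094, 20177 and 23781 counts with vehicle and 23499, 19481 and 21925 with β-SITO, with a log2 fold change of -0.31 (SE 0.07, edgeR adjusted p = 0.00167). Il27ra had 331, 312 and 286 counts with vehicle and 363, 316 and 348 with β-SITO. Its groups overlapped, and the log2 fold change of -0.09 (SE 0.09) did not pass the test (edgeR adjusted p = 0.359) and was 0.06 with scaling by library size alone. Palm3 overlaps Il27ra on the opposite strand.

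Il2rg, Il15ra and Il21r of the common gamma chain receptors were called, as was the IL-13 receptor chain Il13ra1. Il2rg, the gamma chain itself, had 1322, 1339 and 1328 counts with vehicle and 283, 256 and 249 with β-SITO (log2 fold change -2.58, SE 0.07, edgeR adjusted p = 5.87e-14). Il15ra, which presents IL-15 to neighbouring cells, had 834, 876 and 786 counts with vehicle and 72, 75 and 87 with β-SITO (log2 fold change -3.65, SE 0.10, edgeR adjusted p = 4.15e-14). Il15, Il15ra and Il2rg were thus each lower, while the receptor chain Il2rb had at most 8 counts and was not tested. Il13ra1, which joins IL-4Rα in the receptor for IL-4 and IL-13, had 4307, 4506 and 4987 counts with vehicle and 914, 952 and 1016 with β-SITO (log2 fold change -2.49, SE 0.07, edgeR adjusted p = 9e-14). Il4ra, the other chain of that receptor, had 2484, 2316 and 2374 counts with vehicle and 2250, 1874 and 2083 with β-SITO. It differed by less than 2-fold, at -0.45 (SE 0.06, edgeR adjusted p = 8.8e-06), so that the IL-13 binding chains Il13ra1 and Il13ra2 carried the larger decreases. Il21r, the IL-21 receptor, was the receptor chain called higher, with 48, 61 and 51 counts with vehicle and 179, 160 and 152 with β-SITO (log2 fold change 1.38, SE 0.15, edgeR adjusted p = 6.83e-07). Il21 itself had at most 1 count. Il7r, the receptor for IL-7 and TSLP, had 28, 18 and 29 counts with vehicle and 59, 36 and 44 with β-SITO (log2 fold change 0.65, SE 0.25, edgeR adjusted p = 0.0328), and it was not called. The adjusted p of Il7r was 0.135 by the DESeq2 Wald test and 0.0400 by limma-voom.

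The remaining receptor chains were split between small and larger changes. Il20rb, a chain for IL-19, IL-20 and IL-24, had 74, 57 and 86 counts with vehicle and 17, 14 and 25 with β-SITO (log2 fold change -2.18, SE 0.24, edgeR adjusted p = 1.22e-06). Il17rc, the partner of IL-17RA in the receptor for IL-17A and IL-17F, had 439, 420 and 436 counts with vehicle and 220, 181 and 225 with β-SITO (log2 fold change -1.29, SE 0.09, edgeR adjusted p = 3.02e-09). Both were called lower. Il17ra had 1214, 1087 and 1267 counts with vehicle and 818, 659 and 703 with β-SITO, and at -0.95 (SE 0.08, edgeR adjusted p = 2.56e-08) it lay just inside the 2-fold limit, passing it at -1.01 when vehicle library 2 or β-SITO library 4 was left out. Il17rd, a family member also known as a brake on FGF signalling, had 411, 304 and 382 counts with vehicle and 665, 648 and 657 with β-SITO, at 0.61 (SE 0.10, edgeR adjusted p = 4.92e-05). Il11ra1, the IL-11 receptor, was at 76.5 ± 2.80 CPM with vehicle and 121 ± 2.06 CPM with β-SITO (log2 fold change 0.67, edgeR adjusted p = 5.81e-08). This value is uncertain because Galt overlaps the gene on the same strand and a near-identical copy, Il11ra2, exists, to which at most 1 read was assigned. Il3ra was at 28.9 ± 3.03 CPM with vehicle and 18.0 ± 1.02 CPM with β-SITO (log2 fold change -0.68, edgeR adjusted p = 8.44e-06). Il10ra, the IL-10 receptor chain found on leukocytes, overlapped between groups at 13.8 ± 1.73 CPM and 13.3 ± 2.09 CPM, with a log2 fold change of -0.05 (edgeR adjusted p = 0.735) that was 0.10 with scaling by library size alone and 0.07 without vehicle library 1.

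Of the 11 receptor chains not called, 5 were lower and 4 higher at an edgeR adjusted p under 0.05 with a change under 2-fold. Il7r, among the 4, did not pass that threshold by DESeq2. At any fold, 33.8% of all tested genes were lower and 33.0% higher at that threshold.

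**Figure D4:**
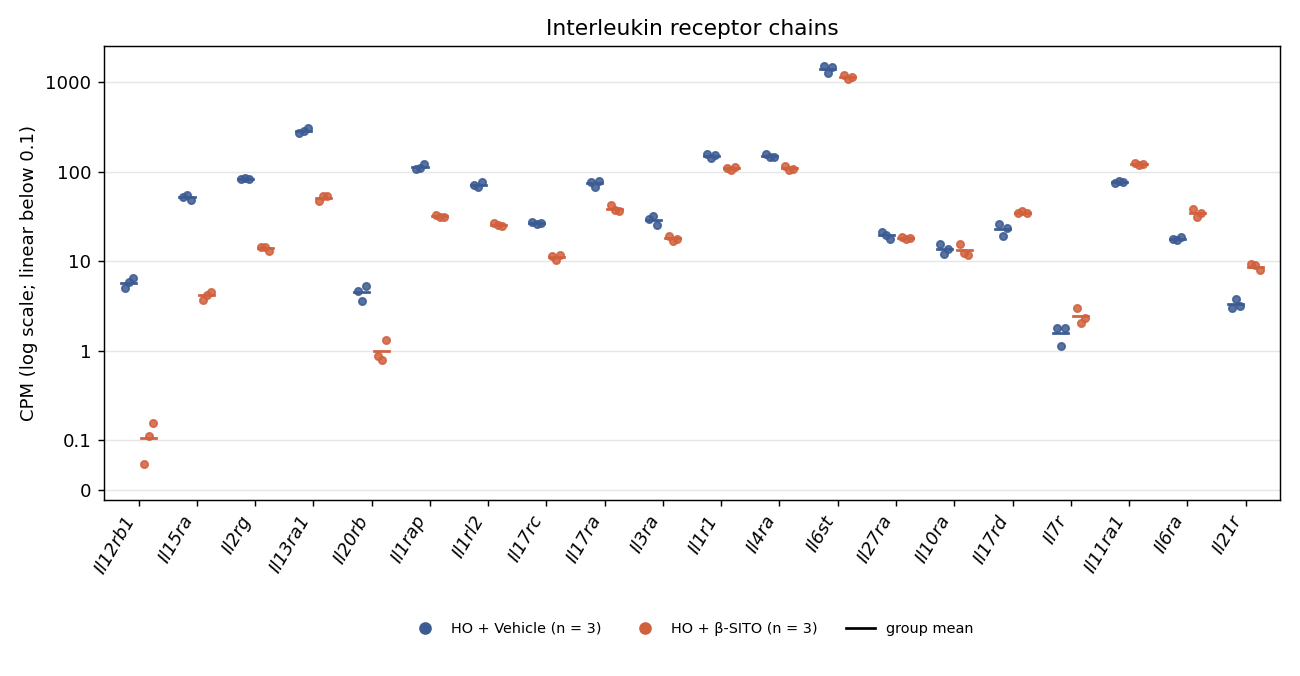
CPM of the 20 receptor chains in each library, ordered by log2 fold change, on an axis that is logarithmic above 0.1 CPM and linear below it. Points are libraries (3 per group) and short lines group means. Il12rb1 and Il15ra show the widest gaps, Il10ra and Il27ra overlap between groups, and Il21r lies 2.6 times higher with β-SITO.

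Levels can be set side by side between genes only per length, here as CPM per kilobase of exon. With vehicle, the ligands ran from Il1b at 110.4 CPM per kilobase through Il1a at 47.2, Il6 at 41.5 and Il12b at 18.0 to Il33 at 9.57 and Il15 at 9.22. With β-SITO the order began with Il33 at 4.13, Il15 at 2.83 and Il17d at 2.42, and Il6 came sixth at 1.45. Il1b and Il12b were last, at 0.06 and 0.00882 CPM per kilobase. Among receptor chains, Il6st was first in both groups, at 128 with vehicle and 103 CPM per kilobase with β-SITO. Il13ra1 followed at 77.6 with vehicle and at 13.8 with β-SITO, behind Il11ra1 at 27.2, Il4ra at 18.3 and Il1r1 at 17.2. Summed over all 37 ligand genes, expressed or not, the level was 489 to 526 CPM with vehicle and 40.8 to 45.5 CPM with β-SITO, while all 38 receptor genes summed to 2441 to 2728 CPM and 1731 to 1879 CPM.

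By family, 9 of 10 IL-1 members were called lower, and the other, Il1r1, was lower by less than 2-fold. Of 10 members that belong to the common gamma chain group or are IL-13 receptor chains, 6 were called lower and 1 higher, with the IL-13 chains Il13ra1 and Il13ra2, whose receptor does not use the gamma chain, making up 2 of the 6. Of 8 gp130 and IL-12 members, 4 were called lower. The 4 IL-17 members split into 1 called lower, 1 called higher and 2 not called. Over all tested genes, 10.1% were called lower and 12.8% higher. In the IL-1 family, 3 members (Il1a, Il1b and Il1r2) reached 10 counts in the vehicle libraries only. So did 3 gp130 and IL-12 members (Il12b, Il27 and Il12rb1) and 1 of the common gamma chain group (Il13ra2). Such members could pass the entry level only by being higher with vehicle.

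Many interleukins, among them several that lymphocytes are known to make, were hardly detected. No reads were found for Il2, Il3, Il13, Il17a, Il20, Il22, Il22b, Il24, Il25, Il31 or Il36b, nor for the antagonists Il36rn and Il1f10 or the receptor chains Il5ra and Il1rapl2. A count of 0 allows up to 3 reads, or between 0.154 and 0.189 CPM per library. The largest count in any library was 1 for Il5, Il9, Il17b, Il17f, Il21, Il36a and Il36g, 2 for Il17c, 7 for Il19, 8 for Il11 and Il23a and 9 for Il10. Il10, the main anti-inflammatory interleukin, had 4, 6 and 9 counts with vehicle and 2, 2 and 3 with β-SITO. Among receptor chains below the entry level, the largest count was 1 for Il22ra1, Il9r and Il11ra2, 2 for Il1rapl1, 4 for Il18r1, 5 for Il20ra, 7 for Il17rb, 8 for Il2ra, Il2rb and Il31ra, 10 for Il12rb2 and Il17re, and 17 for Il18rap. The decoy Il22ra2 had at most 1 count and Il4i1, an amino acid oxidase named after IL-4, at most 6. None of these was tested. T cell markers were sparse in the same libraries, with Cd3e, Cd3d and Cd3g at 0 in all 6 and the 7 listed markers summing to between 0.940 and 1.14 CPM with vehicle and to between 4.44 and 8.27 CPM with β-SITO. Cd28 alone carried this rise, with 1, 8 and 6 counts with vehicle and 155, 76 and 136 with β-SITO (log2 fold change 4.34, edgeR adjusted p = 7.25e-08), whereas Cd247 had 15, 7 and 10 counts with vehicle and 2, 1 and 0 with β-SITO. The NK marker Ncr1, the neutrophil marker Ly6g, the mast cell markers Fcer1a and Tpsb2 and the dendritic cell marker Siglech were also at 0 throughout. Summed levels with vehicle and with β-SITO were 0.126 to 0.376 and 0.103 to 0.521 CPM for 4 NK markers, 12.4 to 13.2 and 0.308 to 0.618 CPM for 5 B cell markers (nearly all Pax5), 14.8 to 16.4 and 3.65 to 5.55 CPM for 5 neutrophil markers, 37.4 to 43.6 and 70.9 to 79.0 CPM for 6 mast cell markers, and 11.6 to 13.02 and 13.2 to 15.2 CPM for 5 dendritic cell markers. The mast cell markers did not move together: Kit (log2 fold change 1.89) and Mcpt4 (2.07) were called higher, while Hdc, with 312, 338 and 315 counts with vehicle and 3, 1 and 5 with β-SITO, was called lower (-6.92). Nearly all of the neutrophil sum and its fall was Csf3r (14.6 to 3.42 CPM, called lower). S100a8 (0.397 to 0.401 CPM), S100a9 (0.375 to 0.453 CPM) and Mpo (0.188 to 0.130 CPM) were too low to be tested. The dendritic cell sum was nearly all Zbtb46 (12.2 to 13.1 CPM, not called), while Clec9a, with at most 23 counts, was called higher (2.48).

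Genes that work with the interleukins were read from 5 lists, 77 genes of which 73 were tested. Of these 73, 29 were called lower and 6 higher, where 10.1% of all tested genes were called lower and 12.8% higher. The median log2 fold change of the 73 was -0.78, beside -0.01 over all tested genes. Partner chains of receptors and cytokines gave 7 lower and 5 higher of 17. The receptor of IL-34 and that of IL-16 were among the higher ones: Csf1r, also one of the macrophage markers, went from 75.4 to 219 CPM (log2 fold change 1.54, edgeR adjusted p = 1.62e-11), Ptprz1 from 1.96 to 8.06 CPM (2.04, edgeR adjusted p = 5.92e-08) and Cd4 from 0.397 to 1.95 CPM (2.28, edgeR adjusted p = 4.35e-05). Ctf1 and Sigirr, a brake on IL-1 family receptors, were the other two. Lif, a gp130 cytokine, fell from 40.8 to 3.10 CPM (-3.72, edgeR adjusted p = 3.84e-13), and its receptor Lifr fell from 113 to 33.9 CPM (-1.73, edgeR adjusted p = 2.58e-12). Osmr, the oncostatin M receptor, fell from 559 to 159 CPM (-1.81, edgeR adjusted p = 3.66e-12). Tslp, a cytokine that shares the IL-7 receptor chain, fell from 21.7 to 2.18 CPM (-3.31, edgeR adjusted p = 2.1e-12), and Cd74, a receptor chain for MIF, fell by 3.48. Csf2rb, the common beta chain, fell by 1.09.

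Maturation and release of IL-1 family ligands was represented by 11 tested genes, 5 lower and 1 higher, beside 10.1% and 12.8% of all tested genes. Casp4, the caspase that senses cytosolic lipopolysaccharide, went from 116 to 5.53 CPM (log2 fold change -4.39, edgeR adjusted p = 4.47e-14), and Gsdmd, the pore through which mature IL-1β leaves the cell, from 127 to 21.4 CPM (-2.57, edgeR adjusted p = 3.32e-14). The inflammasome genes Pycard, Casp1 and Nlrp3 were also lower, at -1.83, -1.64 and -1.10. Nlrp1b, called higher at 1.96, had at most 21 counts.

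Signalling genes were called lower or not called, where 10.1% of all tested genes were called lower and 12.8% higher. IL-1 and IL-18 receptor signalling gave 6 lower of 20, led by Zc3h12a, an RNase that degrades cytokine transcripts (57.4 to 6.65 CPM, log2 fold change -3.10, edgeR adjusted p = 8.61e-14), and Nfkbia, the inhibitor IκBα (237 to 34.5 CPM, -2.78, edgeR adjusted p = 6.53e-15). Myd88 was at -1.67, while Irak4, Tollip and Traf6 lay between -0.21 and -0.03. JAK-STAT signalling gave 4 lower of 17, among them the kinase gene Jak2 (397 to 35.9 CPM, -3.47, edgeR adjusted p = 1.48e-15) and the feedback inhibitor Socs1 at -3.24. IL-17 receptor signalling gave 9 lower of 11, with Tnfaip3, the ubiquitin-editing inhibitor A20, going from 237 to 11.6 CPM (-4.36, edgeR adjusted p = 6.98e-16). Zc3h12a, Nfkbiz and Traf6 stand in both the IL-1 and the IL-17 list. Several of the genes that fell furthest, Nfkbia, Tnfaip3, Socs1 and Zc3h12a, are known as inhibitors within these pathways rather than as transmitters of the signal.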

How the data were processed

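Total RNA of NMCMs was sequenced as 6 paired-end mRNA libraries (the labels name an Illumina TruSeq kit, the study's methods an ABclonal kit). The submitters' processing notes list FastQC, HISAT2, featureCounts and build GRCm39, with versions and strand setting not given in the sources used here. The authors deposited raw read counts per gene, of which all columns were used. The study's methods name DESeq2.

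Counts were filtered with filterByExpr, scaled by TMM and tested with edgeR 4.0.16 (R 4.3.3) by its quasi-likelihood test over all genes, with Benjamini-Hochberg adjustment. Genes were called at an adjusted p under 0.05 and over 2-fold. SE was derived from the fold change and the F statistic. The procedure was tested on simulated data. Pooled ratios carry exact 95% counting intervals. Exon lengths came from a GRCm38 annotation matched by gene ID, and promoters from RefSeq (62 of 83 members had an entry). Gene coordinates are GRCm39 as deposited.

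Every member past the entry level is named. Of the listed pathway genes and markers, the largest changes and defining markers are named, and some are not reported here. Members and lists were chosen with earlier results of these data known. Alternatives were DESeq2 1.42.0, limma-voom (limma 3.58.1), a test against 2-fold, no fold limit, 3 other scalings, 2 other filters and leaving out each library.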

Additional observations from a re-analysis of the deposited data

How the results depend on the processing

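Of 555 member fold changes recomputed under 15 alternatives, 525 kept their direction and their side of the threshold, 8 dropped out of the calls, 15 entered them and 7 changed sign. The sign changes were small and concerned Il10ra (0.0980 by library size alone, 0.0932 by upper quartile, and between -0.189 and 0.0706 when single libraries were left out) and Il27ra (0.0551 and 0.0502 by the same scalings), neither of which was called. By library size alone and by upper quartile the median of all tested genes (a value added after the data had been seen) was 0.14 and 0.14 in place of -0.01. Both scalings called 2 receptor chains higher in place of 1, as did leaving out vehicle library 3 or β-SITO library 5 (1 to 2 over the single libraries left out), the added chain being Il6ra. Tested against 2-fold, 3 pathway genes in place of 6 were higher, and Il34 (adjusted p = 0.743), Il18 and Il1r2 were not called. Without the fold limit, 7 members were higher in place of 3, receptor chains gave 13 lower and 5 higher, pathway lists 50 lower and 12 higher, and all genes 5007 lower and 4885 higher in place of 1492 and 1888. No paired analysis was possible because the groups share no replicate number. Genes with a few reads in a group have fold changes limited by counting error.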
